A study of Mus musculus with 12 samples.

Results

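The miR-297, miR-466, miR-467 and miR-669 families were represented on the array by 39 of 650 miRNAs, taken by their names. The families themselves were chosen with earlier results of these data known. Of the 39 names, 3 belonged to miR-297, 14 to miR-466, 10 to miR-467 and 12 to miR-669, and each was measured by 20 spots carrying 1 to 4 different probes. The members were read in mouse embryonic fibroblasts (MEFs) on a C57BL/6 background, either wild type (ATF6aWT) or deficient in ATF6a (ATF6aKO). Each genotype was left untreated or exposed to 2 ug/mL tunicamycin for 12 or 24 h, which gave 6 groups of 2 arrays from experiments described in the labels as independent. Tunicamycin blocks N-linked glycosylation and loads the endoplasmic reticulum with unfolded protein, and ATF6a is a membrane-anchored transcription factor that is cleaved under that load. The study asked which miRNAs responded to the drug at 12 h in a manner that depended on ATF6a. No probe on the array measures the ATF6a transcript, so the genotype could not be checked. The array reads RNA of a whole culture, so fewer cells of a type and less RNA per cell cannot be told apart.

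These families are rodent miRNAs, most of which lie in tandem copies within an intron of Sfmbt2, an imprinted Polycomb gene. The copies are near-identical, many carry runs of alternating purine and pyrimidine bases, and their mature strands share much sequence, so hybridisation probes for one name can capture another. They are known from embryonic stem cells and placenta. In RefSeq's mouse gene table (GRCm38.p6), 31 of the 39 names had all of their gene entries inside Sfmbt2 on chromosome 2, among 71 miRNA gene entries of these families there, with the entry Mir466 taken as miR-466a. A further 3 names, miR-297a*, miR-466f-3p and miR-466f-5p, had entries both inside and elsewhere. The remaining 5 names lay on other chromosomes, miR-466i on 13, miR-466j on 10, miR-466k on 3, miR-467f on 11 and miR-467g on 5. Inside Sfmbt2, miR-669a had 12 entries, miR-467a had 10 and miR-466b had 8.

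RefSeq's mature miRNA table gave a sequence for 4 members under their exact array name, and for miR-466i through the -3p strand of its gene, the strand the table lists. They are shown because miR-467f, miR-466i, miR-467g and miR-466j belong to the members that were higher in replicate 2 than in replicate 1 at 12 h. miR-466k is shown beside miR-466j because both carry the complementary kind of repeat. Bases are written 5′ to 3′, and capitals mark the seed, bases 2 to 8, which pairs with target transcripts.
miR-467f: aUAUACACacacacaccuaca
miR-466i: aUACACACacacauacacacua
miR-467g: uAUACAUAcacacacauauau
miR-466j: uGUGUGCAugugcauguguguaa
miR-466k: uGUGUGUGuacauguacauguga
In GRCm38.p6 these lie at chr11:69635419-69635439 on the minus strand, chr13:17747552-17747573 on the plus strand, chr5:34732872-34732892 on the minus strand, chr10:60960802-60960824 on the plus strand and chr3:85467396-85467418 on the plus strand. The 5 sequences had 5 different seeds, so no group with a shared seed was found among them. They belong to the 5 names with no gene entry inside Sfmbt2. Seeds and repeats of the names with entries inside it were therefore not described. miR-467f was 85.7% A or C and miR-466i 86.4%, and both hold the letters CACACA, as does miR-467g. miR-466j and miR-466k were 73.9% and 69.6% G or U, and both hold UGUGUG, the reverse complement of CACACA. Both motifs were searched on the mature strand, and CACACA occurred in 12 and UGUGUG in 28 of 1679 mature mouse sequences of the table, or 0.715% and 1.67%. A match is a description of these letters and not of binding.

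The arrays were scanned in 4 runs, per the file headers. Run 1 held replicate 1 and run 2 replicate 2 of the untreated cells, on slide 1, and run 3 held replicate 1 and run 4 replicate 2 of the treated cells, on slide 2. Treatment and slide cannot be told apart, and neither can replicate experiment and scanning run. The 4 arrays of run 4 lay outside the range of the other 8 in bright corner and negative control signals. In miRNAs measured, outlier spots and local background the 4 arrays of run 4 overlapped with the other 8. They had 85 to 144 miRNAs well above background against 129 to 171, outlier spots of 608 to 667 against 302 to 637, bright corner control signals of 9505 to 12883 against 19557 to 47305, and a negative control median of -5.55 to 1.76 against 2.08 to 4.63. Local background was 25 to 28 against 23.5 to 35, and no spot was saturated. Of 10 fibroblast and mesenchymal miRNAs, 9 were well above background on some array and 7 on all 12, with miR-145 on none. All members' results below are given with the replicates apart, and the part of these array differences in them was not tested.

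More members were measurable on the replicate 2 arrays of cells treated for 12 h than on any other array. A miRNA was taken as well above background where more than 0.5 of the spots of at least 1 of its probes carried the scanner software's flag. On the 8 arrays of runs 1 to 3, 8 to 10 of the 39 members were well above background, or 20.5% to 25.6%, next to 19.5% to 26.5% of the other 611 miRNAs. On the replicate 2 arrays at 12 h the members rose to 26 in wild type and 25 in ATF6aKO cells, or 66.7% and 64.1%, while the other miRNAs stood at 118 and 87, or 19.3% and 14.2%. At 24 h the replicate 2 arrays showed 10 and 13 members, or 25.6% and 33.3%, with 12.3% and 12.8% of the other miRNAs. At 12 h the replicate 2 array thus had more members and fewer of the other miRNAs measurable than the replicate 1 array, in both genotypes.

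**Figure D1:**
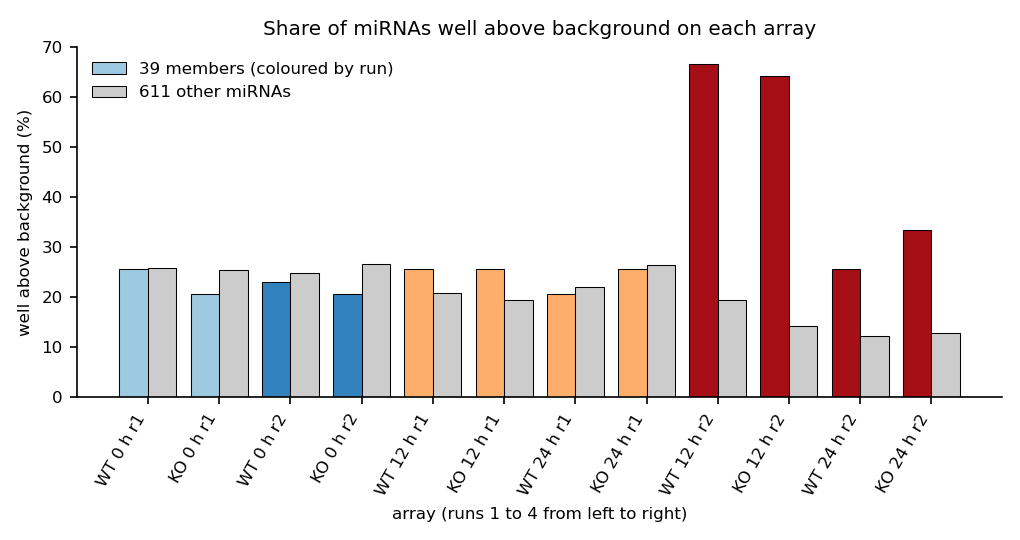
Percent of the 39 members (coloured by scanning run) and of the 611 other miRNAs (grey) well above background on each of the 12 arrays, ordered by run, with r1 and r2 for replicates and 0 h for untreated cells. The members' bars reach 66.7% and 64.1% on the replicate 2 arrays at 12 h, while the grey bars there stand at 19.3% and 14.2%.

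The members fell into 4 patterns of detection. Well above background on all 12 arrays were 5 members, miR-466f-3p, miR-466i, miR-467a*, miR-467f and miR-669f. A further 6, miR-466a-3p, miR-466g, miR-467b, miR-467b*, miR-669a and miR-669c, were measurable on some arrays of runs 1 to 3. The largest class, 16 members, appeared on run 4 arrays and on none of the other 8, and 12 members appeared nowhere. By family, run 4 alone showed 7 of the 14 miR-466 names, 3 of the 10 miR-467 names, 5 of the 12 miR-669 names and 1 of the 3 miR-297 names. Of the 31 names with all gene entries inside Sfmbt2, 18 were well above background on both replicate 2 arrays at 12 h, as were 4 of the 5 names that lie elsewhere and all 3 with entries in both places. miR-466k, the exception among the 5, was well above background on no array, while miR-466j was so on 2 arrays.

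**Figure D2:**
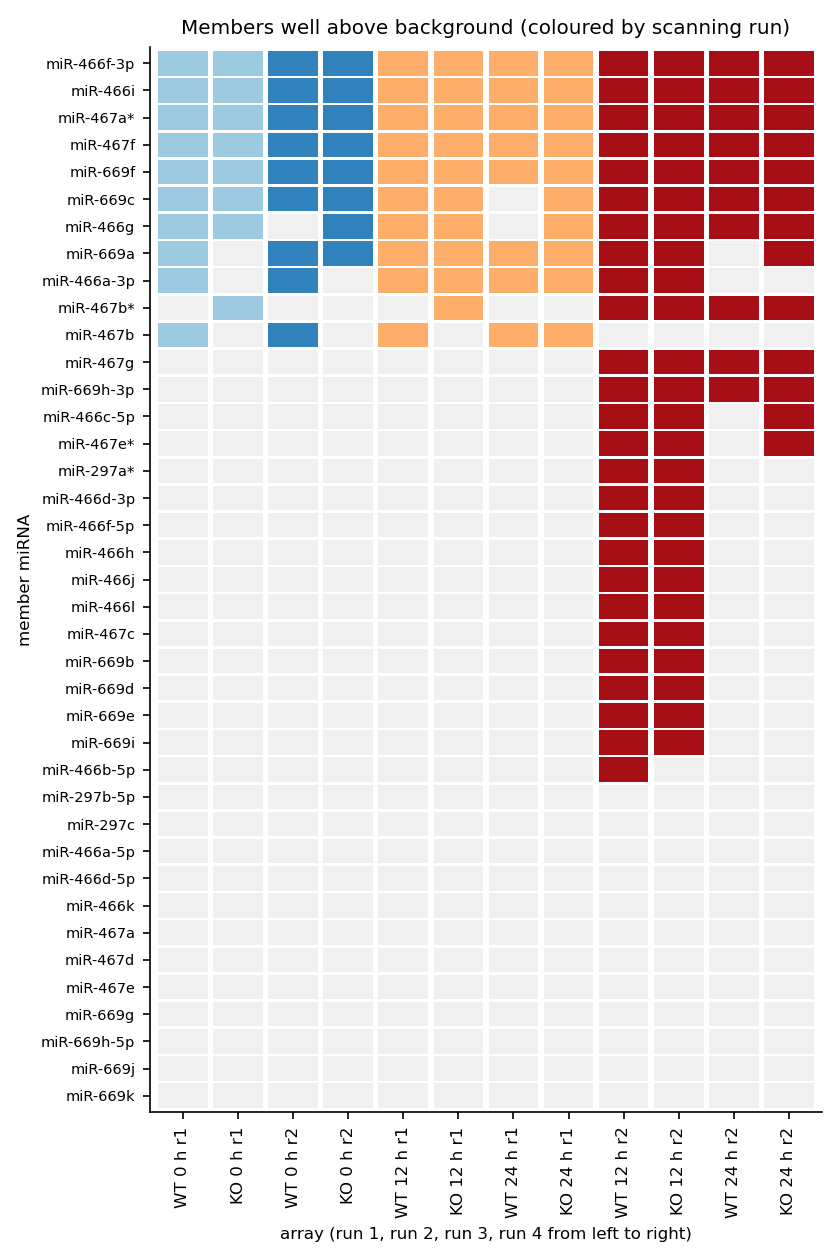
Each row is a member miRNA and each column an array, in order of scanning run; a filled cell means well above background, coloured by run, and a grey cell means not. The block of 16 rows filled in the right-hand columns alone is the set seen on run 4 arrays and on none of the other 8.

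On the replicate 2 arrays at 12 h, the strand named -3p or marked with an asterisk was measurable for 7 of the 7 hairpins with both strands on the array, against 1 of 7 for the opposite strand, that of miR-466f. Of the 7 opposite strands, 5 were well above background on no array. The hairpin of miR-467b differed on the arrays of runs 1 to 3, where miR-467b was well above background on 5 and miR-467b* on 2, with no array in common. miR-669h-3p had processed signals, background-subtracted and before scaling, of 207 and 497 on the wild type and ATF6aKO arrays, while miR-669h-5p was not well above background with 2.20 and 1.16. miR-467e* had 156 and 359, and miR-467e was not well above background with 14.0 and 26.8. miR-467a* had 217 and 470, and miR-467a was not well above background with 1.51 and -6.97. Over all 39 names, 8 of 8 with -3p or an asterisk were well above background on both of these arrays, as were 2 of 7 with -5p and 15 of 24 whose name gives no strand. Signals of different probes do not measure relative amounts, and the counts rest on flags of the same probes. The counts thus describe which strands were measurable and do not rank their amounts.

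miR-467f, with its run of alternating A and C, was measured on every array. Values are log2 of the processed signal relative to the array's 75th percentile, with a floor at -5.02 for signals too low to measure. On the untreated arrays it read -3.38 and -4.00 in wild type and -2.97 and -3.61 in ATF6aKO cells, replicate 1 first. At 12 h it read -3.25 and 0.11 in wild type and -2.61 and 0.28 in ATF6aKO cells, and at 24 h -4.06 and -1.24, and -3.77 and -1.16. The 4 replicate 2 arrays of treated cells were higher than the other 8, while replicate 1 of the treated cells lay just above the untreated values at 12 h and just below them at 24 h. All of its 20 spots carried the flag on 11 of the 12 arrays, and 18 did on the other.

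miR-669f repeated this order with a smaller range. It read -3.30 and -3.70 in untreated wild type and -3.41 and -3.89 in untreated ATF6aKO cells. At 12 h it read -2.88 and -0.28 in wild type and -2.85 and -0.02 in ATF6aKO cells, and at 24 h -3.27 and -1.62, and -3.36 and -1.59. All 8 treated arrays of miR-669f were above its highest untreated value of the same genotype, and the replicate 2 arrays were farther above it than the replicate 1 arrays.

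In replicate 1 of treated cells, neither miR-466f-3p nor miR-466i, the repeat shown above, lay above both untreated arrays of its genotype, with 1 exception. That was miR-466f-3p in ATF6aKO cells at 12 h, with -3.38 against -3.59 and -4.31. miR-466f-3p read -4.10 and -4.58 untreated, -4.38 and 0.01 at 12 h and -4.71 and -1.51 at 24 h in wild type cells. In ATF6aKO cells it read -3.59 and -4.31 untreated, -3.38 and 0.19 at 12 h and -4.58 and -1.31 at 24 h. miR-466i read -3.85 and -4.59, -4.19 and -0.15, and -4.66 and -1.59 in wild type, and -3.56 and -4.30, -3.61 and 0.14, and -4.49 and -1.49 in ATF6aKO cells. For both, the replicate 1 arrays at 24 h lay below the replicate 1 arrays of untreated cells and the replicate 2 arrays at 24 h far above all untreated arrays.

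miR-467a*, like miR-669f, lay above untreated cells in both replicates, at both times and in both genotypes. It read -4.64 and -5.02 untreated, -3.63 and -0.47 at 12 h and -4.00 and -2.20 at 24 h in wild type cells. In ATF6aKO cells it read -4.55 and -5.02 untreated, -3.61 and -0.17 at 12 h and -4.32 and -1.83 at 24 h. Replicate 1 alone gave changes of 1.01 at 12 h and 0.64 at 24 h in wild type cells and 0.93 and 0.23 in ATF6aKO cells, next to 4.55, 2.82, 4.84 and 3.18 in replicate 2. Both untreated replicate 2 values are the floor, so the replicate 2 changes carry that choice.

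miR-467b, the strand opposite miR-467b*, did not share the rise on run 4. It read -4.56 and -4.63 untreated, -4.02 and -4.63 at 12 h and -4.17 and -4.19 at 24 h in wild type cells. In ATF6aKO cells it was at the floor of -5.02 on both untreated arrays and at -4.55 and -5.02 at 12 h and -4.36 and -4.41 at 24 h. It was not well above background on any of the 4 run 4 arrays. miR-467b* read -5.02 on 7 of the 8 arrays of runs 1 to 3, and -0.55 and -0.19 at 12 h and -2.91 and -2.51 at 24 h on the run 4 arrays.

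**Figure D3:**
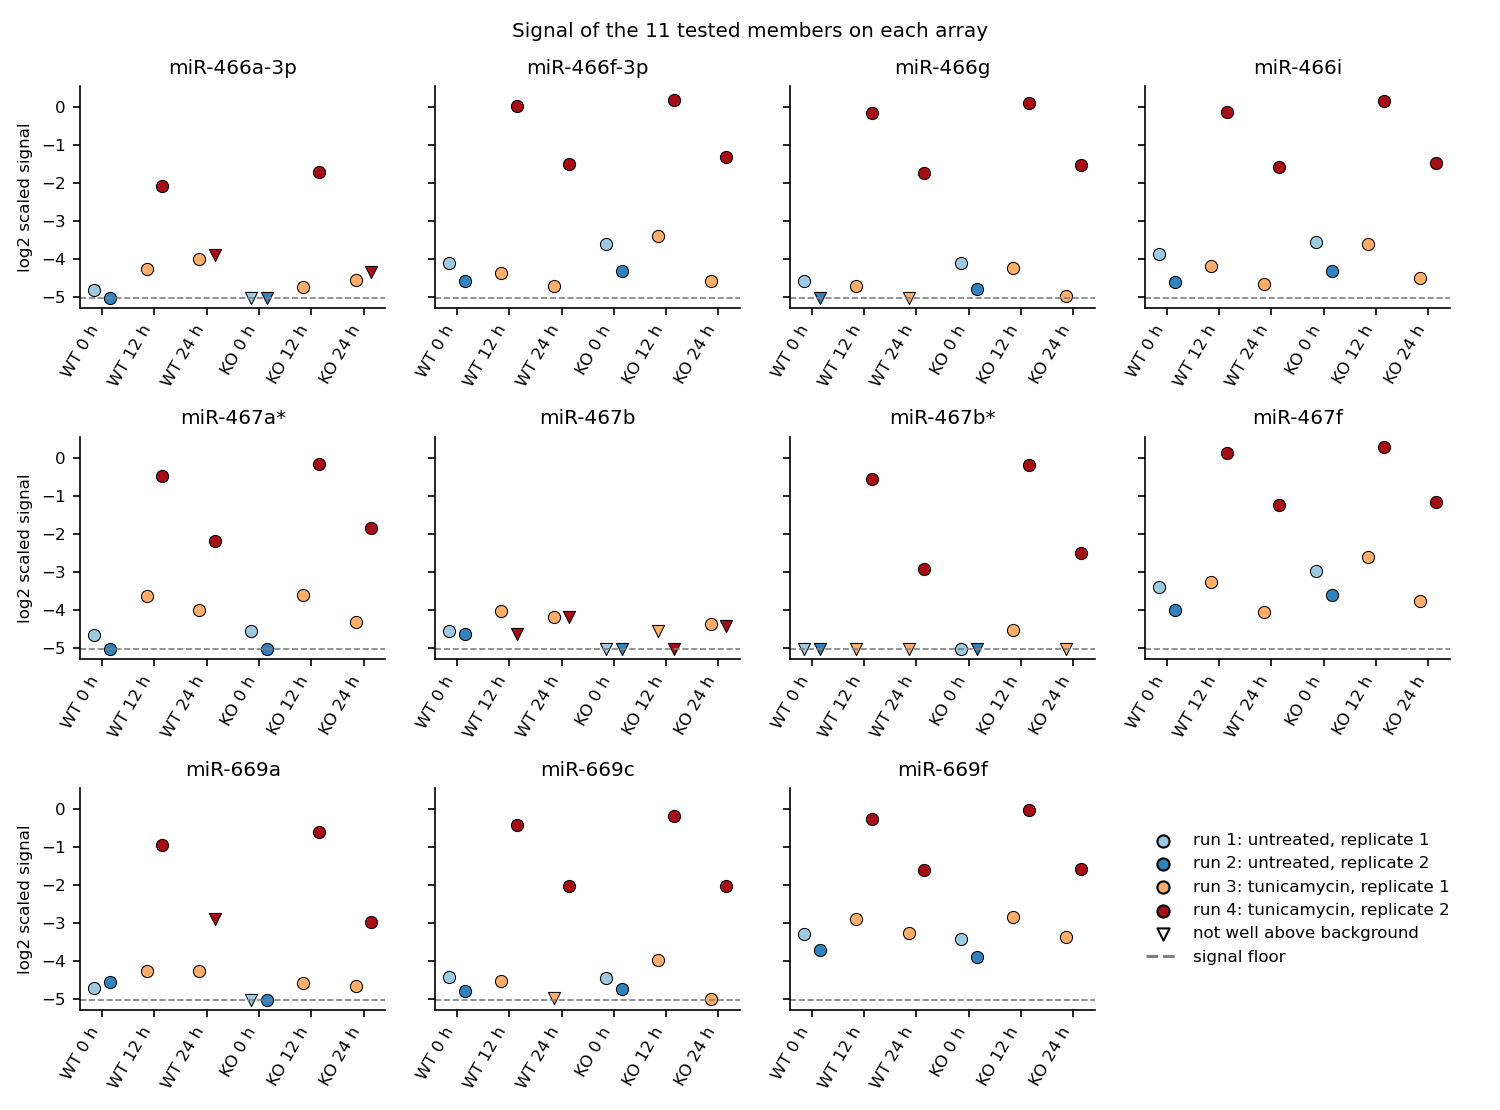
Log2 scaled signal of the 11 tested members on each array, by genotype (WT, wild type; KO, ATF6aKO) and time, coloured by scanning run; triangles are arrays on which the miRNA was not well above background and the dashed line is the floor at -5.02. Dark red points, replicate 2 of treated cells, lie far above the rest for 10 members at 12 h, and miR-467b shows no such rise.

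Set against untreated cells, the members had large mean changes with equally large errors, and none passed the test in either genotype or at either time. Tests used limma with Benjamini-Hochberg adjustment and a threshold of 0.05, over the 175 miRNAs, 11 members among them, that passed the background flag on both arrays of some group. At 12 h in wild type cells the median change of the 11 members was 2.12, against -0.27 over all tested, and 0 were called while 44.6% of all tested miRNAs were. At 12 h in ATF6aKO cells the median was 2.35 against -0.09, with 0 members called beside 17.1% of all. At 24 h the medians were 1.05 and 1.08 against -0.21 and 0.00, with 0 called beside 41.1% and 10.3%. At an unadjusted p under 0.05 the members counted 0, 0 and 0, and 1 in ATF6aKO cells at 24 h, miR-467b with 0.63 ± 0.21 (limma, adjusted p = 0.0993). Leaving out either wild type array at 12 h, which is no part of that comparison, brought this miR-467b value past the threshold (limma, adjusted p = 0.0402). Without the wild type replicate 2 array at 12 h, miR-467b was also called in wild type cells at 12 h, with 0.58 ± 0.18. Without the ATF6aKO replicate 1 array at 12 h, miR-466a-3p with 3.29 ± 0.77 and miR-669a with 4.40 ± 1.39 were called in ATF6aKO cells at 12 h, on the replicate 2 array alone.

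The fitted values show how far the replicates differed. miR-467f changed by 2.12 ± 1.57 (SE, n = 2 arrays per group) in wild type cells at 12 h, with a 95% interval of -1.57 to 5.81 (limma, adjusted p = 0.329), and by 2.12 ± 1.57 in ATF6aKO cells. miR-467a*, the largest mean change of the 11 in both, changed by 2.78 ± 1.49 (adjusted p = 0.178) and 2.89 ± 1.49 (adjusted p = 0.238). The median SE was 1.57 over the members and 0.19 over all tested miRNAs. All 11 members had a mean change above 0 in each of these 4 comparisons, and also when arrays were scaled on all probes, quantile normalized or not scaled. The calls over all miRNAs depended on the scaling, since the 78, 72, 30 and 18 called here became 0 in each of the 4 comparisons when scaled on all probes, with 0 of 11 members called on any of these scales.

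Taken apart, the replicates gave unlike changes. In replicate 1 the median of the members was 0.13 at 12 h and 0.00 at 24 h in wild type, and 0.45 and 0.00 in ATF6aKO cells. In replicate 2 it was 4.37 and 2.76, and 4.44 and 2.51. At 12 h, 10 of 11 members were more than 2 log2 units above untreated cells in replicate 2 of each genotype, with 5 of the 164 other tested miRNAs, and 0 of 11 were so in replicate 1.

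**Figure D4:**
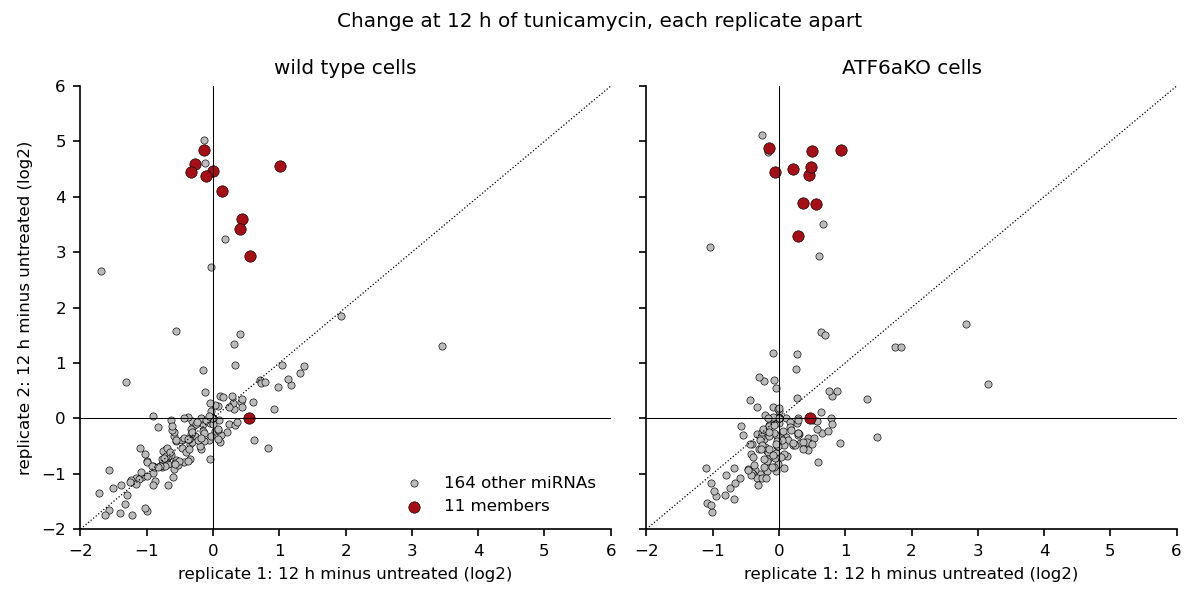
Change at 12 h of tunicamycin against untreated cells of the same replicate number, replicate 1 on the horizontal and replicate 2 on the vertical axis, in log2 units, for wild type and ATF6aKO cells; red points are the 11 members, grey points the 164 other tested miRNAs and the dotted line marks equal changes. In each panel 10 members lie more than 2 units up with 0 that far to the right.

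Some members did not overlap with untreated cells even so. The treated arrays of both replicates lay above both untreated arrays for 5 members in wild type cells at 12 h, 5 at 24 h, 8 in ATF6aKO cells at 12 h and 5 at 24 h, and below them for 0. miR-466a-3p, miR-467a*, miR-669a and miR-669f were in all 4 of these sets. Over all 175 tested miRNAs, groups did not overlap in either direction for 74.3%, 70.9%, 52.6% and 57.7%, with 44.6%, 41.1%, 17.1% and 10.3% called.

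With replicate 2 of the 4 treated groups left out, 4 members were called in wild type cells at 12 h, 3 at 24 h, 3 in ATF6aKO cells at 12 h and 1 at 24 h, all higher. Over all tested miRNAs the same fits called 62.9%, 55.4%, 37.7% and 29.7%, larger shares than among the members. These had small changes, miR-466a-3p with 0.65 ± 0.11 and 0.91 ± 0.11 in wild type cells at 12 and 24 h, miR-669a with 0.35 ± 0.09 and 0.35 ± 0.09, and miR-467b with 0.58 ± 0.05 and 0.42 ± 0.05. miR-467a* changed by 1.20 ± 0.30 in wild type cells at 12 h (limma, adjusted p = 0.0447). In ATF6aKO cells miR-467b changed by 0.47 ± 0.05 at 12 h and 0.65 ± 0.05 at 24 h. At 12 h miR-669a changed by 0.45 ± 0.09 and miR-467b* by 0.50. The untreated values behind these changes were at the floor on most or all arrays. miR-467b* lay at the floor on every untreated array, so its fitted error measured no spread. It entered the test through the flag on both ATF6aKO arrays at 12 h alone, the group in which it was higher here. miR-466f-3p in wild type cells at 12 h, and miR-466f-3p, miR-466i and miR-467f at 24 h in both genotypes, had changes below 0 with replicate 2 left out. With replicate 1 left out in its place, 10 of 11 members were called at 12 h and 11 of 11 at 24 h in each genotype, while 73.1% and 69.1% of all tested miRNAs were called in wild type and 64% and 46.9% in ATF6aKO cells. In these fits each treated arm is 1 array and is assumed to vary like the untreated groups.

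No member passed the test for genotype. Between ATF6aKO and wild type cells the median member difference was 0.02 untreated, 0.37 at 12 h and 0.03 at 24 h, with 0 of 11 called in each, while 28% of all tested miRNAs were called untreated, 7.43% at 12 h and 9.71% at 24 h. At an unadjusted p under 0.05 limma also gave 0 members in all 3. The difference of the responses between the genotypes had a member median of 0.14 at 12 h and -0.04 at 24 h, with 0 called and 0 at an unadjusted p under 0.05, beside 9.71% and 13.1% called over all. The interval for miR-467f at 12 h was 0.40 ± 1.57, from -3.29 to 4.10. With scanning run as a block, which takes the difference within each run, it was 0.40 ± 0.18, from -0.04 to 0.85 (limma, adjusted p = 0.247). That fit also called 0 members for genotype, and at an unadjusted p under 0.05 it gave 1, miR-467b at 12 h with -0.46 ± 0.17 (limma, adjusted p = 0.176). Of these 5 member medians, 2 changed sign with the scaling: on all probes the difference at 24 h was -0.41 and the difference of responses at 12 h was -0.43.

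The genotypes were also compared within each replicate. On the run 4 arrays at 12 h the ATF6aKO value exceeded the wild type value for 10 of 11 members. The median was 0.27, with a range of -0.38 to 0.36, against a median of -0.11 over all tested miRNAs. At 24 h it was 8 of 11 with a median of 0.08 against -0.05. In replicate 1 at 12 h it was 8 of 11, with a range from -0.53 to 0.99. The median there was 0.46 against 0.00 over all tested. Each comparison is 1 pair of arrays, and members whose probes can capture each other are not separate observations. miR-467b was lower in ATF6aKO than in wild type cells on every same-numbered pair of arrays, with differences of -0.46 and -0.38 untreated, -0.53 and -0.38 at 12 h and -0.19 and -0.22 at 24 h, and both untreated ATF6aKO arrays and the replicate 2 array at 12 h at the floor. Its mean differences were -0.42, -0.46 and -0.20, each ± 0.21, and did not pass (limma, adjusted p = 0.216, 0.292 and 0.736). With the floor at 0.5 of its height, the untreated difference of miR-467b was -1.41 ± 0.36 and passed (limma, adjusted p = 0.0231), and fitted on the untreated groups alone it was -0.42 ± 0.04 and passed, as did miR-669a with -0.39 ± 0.07.

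The members were lower on average at 24 h than at 12 h without passing the test. The median was -0.96 in wild type and -1.22 in ATF6aKO cells, against 0.00 and 0.02 over all tested, with 0 of 11 called and 0 at an unadjusted p under 0.05 (limma), beside 1.14% and 2.29% of all called. Within run 4 the median was -1.56 and -1.63, and within run 3 it was -0.33 and -0.70. With scanning run as a block, miR-467f was called in each genotype, with -1.08 ± 0.18 in wild type and -1.30 ± 0.18 in ATF6aKO cells (limma, adjusted p = 0.0443 and 0.0145). The median member SE was 0.31 with the block and 1.57 without it. The shares of all miRNAs given above belong to the fit without the block, and those of the block fit are not given. Without the ATF6aKO replicate 1 array at 12 h, miR-466a-3p was called in ATF6aKO cells with -2.72 ± 0.77.

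The replicates themselves were then compared, as run 4 minus run 3, a comparison chosen after the data were seen. It takes the wild type and ATF6aKO arrays of a time as the replicates of each run, and the experiment and the run cannot be told apart in it. At 12 h all 11 tested members were called, 10 higher and 1 lower, with a median of 3.63 against -0.12 over all tested, while 28.6% of all tested miRNAs were called, 12.6% higher. At 24 h 9 of 11 were called, all higher, with a median of 2.31 against -0.02, beside 11.4% called, 7.43% higher. Members made up 10 of the 22 miRNAs higher at 12 h, or 45.5%, and 9 of the 13 higher at 24 h, or 69.2%.

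The largest difference at 12 h was that of miR-466g, 4.43 ± 0.10, followed by miR-467b* with 4.39 ± 0.12 and miR-466f-3p with 3.98 ± 0.20. miR-669c differed by 3.94 ± 0.10, miR-466i by 3.90 ± 0.09 and miR-669a by 3.63 ± 0.17. miR-467a* differed by 3.31 ± 0.18, miR-467f by 3.13 ± 0.13, miR-669f by 2.72 ± 0.09 and miR-466a-3p by 2.59 ± 0.20. miR-467b was the member that was lower, with -0.54 ± 0.08 (limma, adjusted p = 0.00665), where 16% of all tested miRNAs were called lower, and on run 4 it was not well above background. The lower bounds of the 95% intervals of the other 10 were 2.07 or higher.

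At 24 h miR-466g again differed most, by 3.37 ± 0.10, with miR-466f-3p at 3.23 ± 0.20 and miR-466i at 3.04 ± 0.09. miR-467f differed by 2.72 ± 0.13 and miR-669f by 1.71 ± 0.09. miR-466a-3p, with 0.16 ± 0.20 (adjusted p = 0.842), and miR-467b, with -0.03 ± 0.08 (adjusted p = 0.960), were not called. The same comparison of the untreated cells, run 2 minus run 1, gave a member median of -0.42 against 0.01 over all tested, with 0 of 11 called, 6 at an unadjusted p under 0.05, and 0% of all called. Its largest member difference was -0.74 ± 0.09 for miR-466i, opposite in sign to run 4 minus run 3, and leaving out any 1 of the 4 arrays at 12 h brought it past the threshold (limma, adjusted p = 0.0352). miR-467a* at 24 h, 2.15 ± 0.18, kept its value but no longer passed with any 1 of the 4 untreated arrays left out.

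The way arrays were scaled changed the size of these differences. Scaled on all probes, the member medians were 1.38 at 12 h and 0.99 at 24 h while the medians of all tested miRNAs moved to -1.15 and -1.32, and miR-669f at 24 h turned to -0.010. On that scale miR-669f at 12 h, 0.46, and miR-467a* at 24 h, 0.42, no longer passed, nor did miR-467a* with 1.23 and miR-669f with 0.80 at 24 h with no scaling. Quantile normalization gave 2.51 and 1.72 with -0.70 and -0.37 over all, and no scaling 3.38 and 1.23 with -0.31 and -0.52. Under each of these, 10 of 11 members were above 0 at 12 h, and 7 to 9 of 11 at 24 h. At 24 h the 9 members called higher and 0 lower became 6 and 2 on all probes and 9 and 2 after quantile normalization, and the lower pair was miR-466a-3p and miR-467b, with -1.35 and -1.42 on all probes.

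The excess of run 4 over run 3 was larger at 12 h than at 24 h for most members. The difference was called for 7 of 11, all larger at 12 h, with a median of 1.01 against -0.07 and 7.43% of all tested called, 6.29% higher. It was 2.43 ± 0.29 for miR-466a-3p, 2.11 ± 0.24 for miR-669a and 2.09 ± 0.17 for miR-467b*. These calls depended on single arrays and on the scaling. Leaving out any of the 4 untreated arrays left 0 calls, leaving out either wild type array at 24 h left 1, and scaling on all probes or no scaling left 0.

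**Figure D5:**
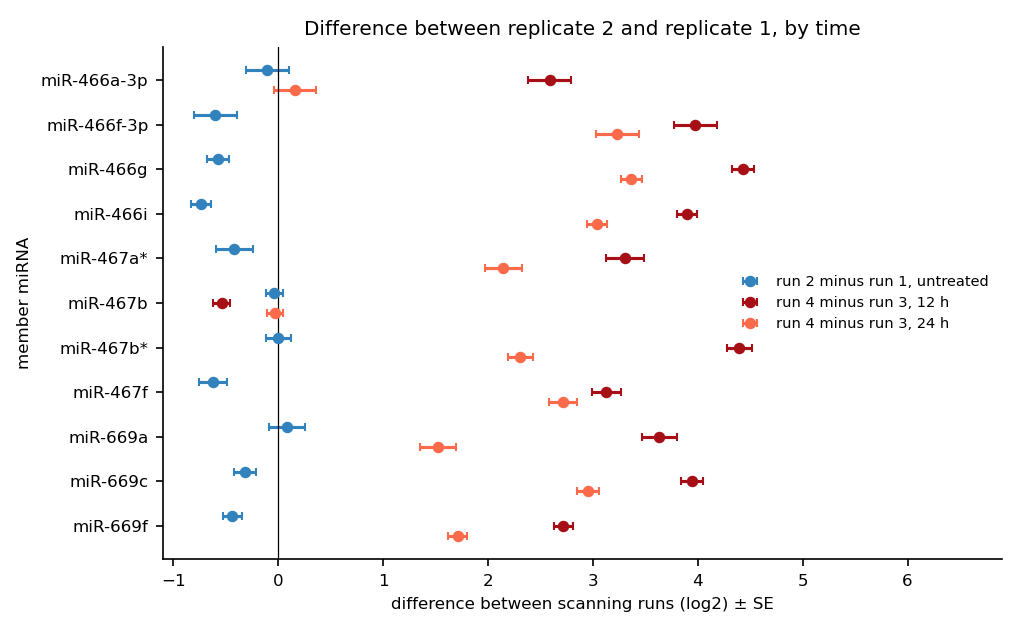
Difference between replicate 2 and replicate 1 for the 11 tested members, in log2 units with SE from limma, for untreated cells (run 2 minus run 1) and for 12 and 24 h of tunicamycin (run 4 minus run 3). At 12 h 10 members lie between 2.59 and 4.43, and the untreated differences lie between -0.74 and 0.08.

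Of the 28 members outside the test, 15 were well above background on both run 4 arrays at 12 h and on neither run 3 array. For these the difference is a lower bound, the run 4 mean over, on each run 3 array, the lowest signal measurable there or the member's own value at or above the floor, whichever was higher. It was at least 4.67-fold to at least 21.6-fold higher, with a median of 7.90. Members and probes were taken by their flag on the run 4 arrays, so that choice fixed the direction. Some members kept few probes, 1 of 4 for miR-466f-5p and 1 of 2 for miR-467c. The bounds hold on the scale of the tests and were not computed on other scales. Scaled on all probes, the median excess of the tested members at 12 h fell from 3.63 to 1.38 log2 units. miR-669h-3p was at least 21.6-fold higher, miR-467g at least 17.8-fold, miR-467e* at least 15.9-fold and miR-466c-5p at least 15.1-fold. The UGUGUG member miR-466j was at least 6.39-fold higher, although its partner in sequence miR-466k had -2.91 and -0.75 on these arrays and was not well above background. At 24 h the bound could be given for 2 of these members, miR-669h-3p at least 5.43-fold and miR-467g at least 4.72-fold higher.

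The processed signals behind these bounds were far higher on the run 4 arrays. miR-669h-3p ranged from -2.04 to 4.51 on the 8 arrays of runs 1 to 3, and read 207 and 497 at 12 h and 23.6 and 56.8 at 24 h on run 4, wild type first. miR-467g ranged from -1.13 to 12.4, and read 176 and 401 at 12 h and 21.8 and 44.2 at 24 h. On the ATF6aKO array at 12 h, 20 of 20 spots of miR-669h-3p were flagged, with a CV of 9.27% over spots. The 12 members seen nowhere had a median of 1.86 and 0.37 on the wild type and ATF6aKO run 4 arrays at 12 h. They ranged from -4.92 to 18.7 and from -8.90 to 54.7. The highest on both was miR-297c, which read at most 4.15 on the arrays of runs 1 to 3.

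Outside the families, the miRNAs whose profile over the 12 arrays was most like that of miR-467f were miR-574-3p with Pearson's r = 0.99, miR-1187 with 0.98, miR-574-5p with 0.98, miR-877* with 0.96 and miR-1904 with 0.92. These are descriptions over arrays that share the run 4 shift. Over the 8 arrays of runs 1 to 3, r was 0.86, 0.88, 0.88, 0.38 and 0.68. Both strands of miR-574, miR-1187 and miR-1904 had RefSeq sequences, shown because they are the miRNAs most like miR-467f, and 3 of the 4 hold CACACA or UGUGUG.
miR-574-3p: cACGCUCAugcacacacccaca
miR-1187: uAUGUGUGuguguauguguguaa
miR-574-5p: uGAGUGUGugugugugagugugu
miR-1904: gUUCUGCUccucuggagggagg
They lie in GRCm38.p6 at chr5:64970364-64970385 on the plus strand, chr5:82798964-82798986 on the minus strand, chr5:64970328-64970350 on the plus strand and chr13:109903819-109903840 on the plus strand. At 12 h run 4 exceeded run 3 by 4.70 ± 0.18 for miR-574-3p, 4.71 ± 0.27 for miR-877*, 2.49 ± 0.08 for miR-1187, 2.12 ± 0.10 for miR-574-5p and 0.56 ± 0.09 for miR-1904. The first 4 of these were also the miRNAs outside the families that were called higher at 24 h. The 9 sequences shown had 9 different seeds, so what these miRNAs share with miR-467f here is the profile and, for miR-574-3p, the letters CACACA. Of the other names on the array with these letters, miR-342-3p (CACACA) was well above background on 8 arrays and did not share that profile, with changes at 12 h of -0.68 and -0.67 in wild type and -0.43 and -1.03 in ATF6aKO cells, replicate 1 first. miR-713 (CACACA) and miR-291a-3p (UGUGUG) were well above background on no array.

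Marker lists of other cell types were compared on the same arrays. Of 10 embryonic stem cell miRNAs, 2, miR-294 and miR-302c, were well above background, on run 4 arrays at 12 h alone, and the list's summed scaled signal was 0.0147 to 0.0261 on untreated, 0.0261 to 0.0407 on run 3 and 0.0794 to 0.319 on run 4 arrays. The other 8, miR-290-5p and miR-295 among them, were not well above background on any array. Of 3 muscle miRNAs miR-206 alone was well above background, with sums of 0.00721 to 0.0174 in run 3 and 0.028 to 0.177 in run 4. None of the 5 epithelial, 3 neuronal and 5 haematopoietic miRNAs was well above background on any of the 12 arrays. The part of these lists in the members' difference was not tested.

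RNA fragments that are often read as miRNAs were also compared as a list. Of 5 such names, 3 were well above background and tested, and miR-685 and miR-805 were not. Of the 3, 1, miR-690, was called higher in run 4 at 12 h. Its changes at 12 h were 0.40 and 1.52 in wild type and 0.69 and 1.51 in ATF6aKO cells, replicate 1 first. Their summed scaled signal was 3.64 to 4.96 in run 3 and 3.33 to 3.93 in run 4. Of 5 GC-rich names, 4 were well above background, 0 of the 2 tested were called higher in run 4 and 1 was called lower at 12 h. Of 9 fibroblast miRNAs tested, 0 were called higher and 2 lower, with summed signals of 21.5 to 29.1 in run 3 and 18.9 to 24.0 in run 4. Over all tested miRNAs, 12.6% were called higher and 16% lower in run 4 at 12 h. The part of these lists in the members' difference was not tested.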

How the data were processed

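Total RNA (100 ng per array) from 12 MEF cultures was labelled with Cy3 and hybridised to single-colour miRNA arrays, per the labels. Spot intensities were deposited as Agilent Feature Extraction 10.7.1.1 output, per the submitters' processing notes, background-subtracted and on a linear scale, per the file headers. Log2 values were also deposited in a table of the whole series, and over 2034 values of detected miRNAs they equalled the log2 of the software's TotalGeneSignal within 1.54e-06. Outlier and control spots were left out, spots were averaged per probe, signals were scaled by the array's 75th percentile, taken over the 87 probes detected on all 12 arrays, and a floor of 0.0309 was set before log2 was taken. A signal can carry the flag and lie under the floor, and 1 tested miRNA lay at the floor on all 12 arrays.

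A miRNA's value is the mean over those of its probes that carried the flag on both arrays of some group. For 175 miRNAs, limma 3.58.1 (R 4.3.3) fitted 6 group means (11 comparisons, 6 residual and 1.16 prior degrees of freedom), and, as an addition, with run terms (3 residual and 2.04 prior). Both fits were also applied to simulated data with independent noise, no floor and no shift shared by the members. That simulation does not cover data with these features. The number of arrays limits precision, and p-values measure the spread between these arrays. Members and lists were chosen with earlier results of these data known. Members named are the 5 with the highest mean, those on all 12 arrays and those past a threshold, with the 5 other miRNAs most like the lead member; further members were named after their values were seen. Alternatives covered scaling, background (normexp with offset 50 on median signals), probes, filters, floor, blocks and arrays left out.

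Replicate 2 minus replicate 1 differences correlated at 0.82 to 0.94 between treated groups, 0.74 between untreated groups and -0.66 to -0.45 between untreated and treated groups. Replicate number goes with scanning run in these differences. They cannot show whether untreated and treated arrays of the same number are paired.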

Additional observations from a re-analysis of the deposited data

Results flagged for a closer look

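For 7 members the excess of run 4 over run 3 differed between 12 and 24 h of tunicamycin by the test of that difference. It was larger at 12 h by 2.43 for miR-466a-3p, 2.11 for miR-669a, 2.09 for miR-467b*, 1.06 for miR-466g, 1.01 for miR-669f, 0.99 for miR-669c and 0.86 for miR-466i, in log2 units. These calls were lost on leaving out any untreated array.

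Of the members outside the test, 16 were well above background on a run 4 array and on none of the other 8. The 16th, miR-466b-5p, was so on the wild type array at 12 h alone, with a processed signal of 10.3.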

How the results depend on the processing

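Every treatment, genotype and time comparison had 0 of 11 members called. With replicate number as a block it stayed at 0 in all 11 of them. A floor at 0.5 of its height gave 1 in ATF6aKO cells at 24 h and 1 between untreated genotypes. Fitting only the groups of the comparison gave 2 in wild type and 1 in ATF6aKO cells at 24 h and 2 between untreated genotypes. Scanning run as a block gave 1 in each genotype from 12 to 24 h. The share of all tested miRNAs called is not given for these alternatives. Their counts are therefore not read against a background.

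Without replicate 2 of the treated groups, 4, 3, 3 and 1 members were called against untreated cells (wild type at 12 and 24 h, ATF6aKO at 12 and 24 h), 2 between untreated genotypes, 2 between genotypes at 12 h, 1 from 12 to 24 h in ATF6aKO cells and 1 for the difference of responses at 12 h. Without replicate 1, an addition after the data were seen, these counts were 10, 11, 10, 11, 2, 2, 7 and 2, with 1 between genotypes at 24 h, 6 from 12 to 24 h in wild type cells and 1 for the difference of responses at 24 h. Over all 175 miRNAs the same fits against untreated cells called 110, 97, 66 and 52 without replicate 2 and 128, 121, 112 and 82 without replicate 1, and 13 to 95 in the other comparisons. Turned below 0 without replicate 2 were miR-466f-3p (-0.037 in wild type cells at 12 h, -0.37 and -0.63 in wild type and ATF6aKO cells at 24 h), miR-466i (-0.44 and -0.56 at 24 h) and miR-467f (-0.37 and -0.48 at 24 h). Leaving out any single array, these ranged from -0.037 to 4.35, -0.37 to 2.82 and -0.63 to 2.64 for miR-466f-3p, from -0.44 to 2.63 and -0.56 to 2.44 for miR-466i, and from -0.37 to 2.45 and -0.48 to 2.13 for miR-467f. Member counts then ranged from 0 to 1 in wild type and 0 to 2 in ATF6aKO cells at 12 h, 0 to 1 in ATF6aKO cells at 24 h and from 12 to 24 h, and 0 in the other treatment, genotype and time comparisons.

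Between the untreated runs, 0 members became 2 under quantile normalization, 3 over miRNAs detected on all 12 arrays, and 0 to 1 with an array left out. For run 4 minus run 3 the 11 members at 12 h became 29 of 33 with no filter and 5 of 5 over miRNAs on all 12 arrays. At 24 h the 9 became 15 and 5, 5 with no scaling, and 7 to 9 with an array left out. The 7 members that differed between 12 and 24 h became 0 scaled on all probes, 0 with no scaling, 1 with summed signals, 26 with no filter, 4 over miRNAs on all 12 arrays and 0 to 8 with an array left out. Shares over all miRNAs are not given for the fits with no filter, over miRNAs on all 12 arrays, with summed signals or with an array left out. Member counts from those fits are therefore not read against a background. miR-669f at 24 h turned to -0.010 scaled on all probes. Over all 175 miRNAs, the 78, 72, 30 and 18 called against untreated cells became 0 each on all probes, 7, 7, 5 and 9 after quantile normalization and 4, 25, 7 and 9 with no scaling, while the 50 and 20 of run 4 minus run 3 became 114 and 136, 128 and 94, and 23 and 83. The causes were not tested, beyond the change in miRNAs or arrays that an alternative makes itself. The no-filter fit left out miRNAs at the floor on every array. Few arrays, and members near background on 8 of them, limit the precision.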
